A study of Mus musculus with 13 samples.

Results

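Granular, cornifying keratinocytes were chosen by their share of loricrin: they are the cells in which loricrin (Lor) transcripts made up at least 1% of all UMIs, and they numbered 562 of 36927 kept cells (1.52%). A UMI (unique molecular identifier) is a tag that marks 1 captured transcript, and kept cells are those with 200 or more genes and no more than 10% of UMIs from mitochondrial genes. The Lor share chose the cells, so Lor and the genes that accompany it are given as a description and carry no test. Over the 4 libraries 10 cells lay just inside the threshold, at 1.001% to 1.08%, and 11 lay just outside it, at up to 0.993%, while 267 cells stood at 8% or more.

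The granular layer is the last living layer of the epidermis. Its keratinocytes build the cornified envelope, a shell of cross-linked proteins such as loricrin and the late cornified envelope (LCE) proteins, fill themselves with filaggrin granules, secrete barrier lipids and then lose their nucleus to become the dead squames of the stratum corneum. Many of the envelope genes sit side by side in 1 chromosomal cluster, the epidermal differentiation complex.

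The study followed the abdominal epidermis of C57BL/6 mice through pregnancy, a time at which this skin expands. All mice of the single-cell libraries had the genotype Tbx3creERT2; R26H2B EGFP, that is, a tamoxifen-inducible Cre recombinase tied to Tbx3 and an EGFP reporter fused to histone H2B, and all received tamoxifen. The states were non-pregnant (NP, tamoxifen for 3 days), gestation day 16 (dpc16), and days 6 and 40 post partum (dpp6 and dpp40), the last 3 with tamoxifen given during pregnancy. Each state is 1 library of trypsin-dissociated epidermis, the sources used here give neither the number of mice behind it nor their ages, and cells of a library are not replicates. No test between states can therefore be made, and differences between states, libraries and mice cannot be told apart.

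The first sequences shown are promoters from RefSeq (GRCm38.p6), because the rule rests on Lor and because the Lce1 genes carry a division among these cells that is described further on. Each line gives the 150 bases before the annotated start, read on the gene's strand, for Lor (chr3:92083143-92083292, minus strand), Flg2 (chr3:93197123-93197272, plus strand), Lce1m (chr3:93019062-93019211, minus strand), Lce1d (chr3:92687211-92687360, minus strand), Lce1a2 (chr3:92670316-92670465, minus strand) and Lce1h (chr3:92765066-92765215, minus strand). Capitals mark TATAAA (the TATA box), TGANTCA (the letters bound by AP-1) and the words TGTCTCAC and ATAAAAGG.
Lor: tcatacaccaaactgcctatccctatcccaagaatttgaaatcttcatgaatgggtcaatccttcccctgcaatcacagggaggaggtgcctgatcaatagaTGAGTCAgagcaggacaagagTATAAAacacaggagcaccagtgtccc
Flg2: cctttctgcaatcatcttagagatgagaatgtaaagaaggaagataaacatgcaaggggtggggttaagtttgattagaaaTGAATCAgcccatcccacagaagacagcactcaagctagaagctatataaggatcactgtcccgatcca
Lce1m: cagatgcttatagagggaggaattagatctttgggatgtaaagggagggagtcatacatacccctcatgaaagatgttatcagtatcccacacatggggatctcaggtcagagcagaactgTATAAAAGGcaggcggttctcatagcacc
Lce1d: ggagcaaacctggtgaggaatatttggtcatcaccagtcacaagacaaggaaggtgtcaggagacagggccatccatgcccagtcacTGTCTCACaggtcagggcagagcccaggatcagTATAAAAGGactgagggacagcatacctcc
Lce1a2: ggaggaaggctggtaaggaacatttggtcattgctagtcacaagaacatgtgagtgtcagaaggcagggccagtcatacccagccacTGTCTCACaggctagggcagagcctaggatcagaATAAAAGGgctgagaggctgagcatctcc
Lce1h: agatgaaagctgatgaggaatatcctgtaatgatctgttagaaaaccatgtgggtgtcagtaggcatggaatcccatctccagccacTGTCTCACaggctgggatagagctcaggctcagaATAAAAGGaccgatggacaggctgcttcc

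The last 2 words are the 2 non-overlapping words of 8 letters that most Lce1 windows share, found after these sequences were read. Among words shared by equally many Lce1 windows, those rarer over all windows were taken. Both the Lce1 counts and the shares over all windows of these 2 words were thus part of the choice and are a description. Windows from 250 bases before to 50 bases after the start were available for 13 of the 14 Lce1 genes (Lce1f had none), and motifs were searched on both strands. ATAAAAGG was in 10 of the 13 Lce1 windows and in 1.76% of the 32851 windows of all genes, and it began at base -29 or -28 in each of the 10. TGTCTCAC was in 10 of the 13 and in 1.31% of all windows. TATAAA, which overlaps ATAAAAGG, was in the windows of Lce1d, Lce1m and Lor and in 13.6% of all windows. TGANTCA was in the Lor and Flg2 windows, in 0 of 13 Lce1 windows and in 7.81% of all windows. A match describes letters and not a used site.

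The second marker and markers of other cells were set beside the label. Flg2 (filaggrin-2, a protein of the cornified layer) had a UMI in 556 of the 562 cells (98.9%). A single UMI is a low bar, as the shallowest granular cell had 2741 UMIs. The share of other cells with an Flg2 UMI was not set beside it, so this share is a description and does not check the label. Krt10, the keratin of differentiating layers, stood at 5206, 4896, 4198 and 6216 CPM in NP, dpc16, dpp6 and dpp40 granular cells. CPM (counts per 1000000) is a gene's UMIs per 1000000 UMIs, summed over the cells of a class in 1 library. Markers of melanocytes summed to 3.17 to 8.25 CPM over the 4 libraries, and markers of fibroblasts and endothelium to 1.27 to 5.30 CPM. Other lists stood higher. Spinous markers summed to 67062 to 85778 CPM and upper follicle markers to 4773 to 6843 CPM. Langerhans and myeloid markers summed to 1353 to 1628 CPM and sebaceous gland markers to 557 to 818 CPM. In cells with at least 1% Krt10 and under 1% Lor, these 4 lists summed to 45052 to 56650, 2796 to 4877, 1889 to 2097 and 1060 to 1555 CPM. At least 0.1% Krt79, a keratin of the upper hair follicle, was held by 20 of the cells, and 2 met a rule for Langerhans cells (a Cd207 UMI and 0.5% Cd74), 8 a rule for T cells (3 Cd3 UMIs), and 103 held any UMI of Ptprc, Cd207 or a Cd3 gene. No doublet caller was run, and 2 of the 562 cells carried a barcode that also occurs among the granular cells of another library.

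The granular cells were deep: their median UMI count was 11158 in NP, 12427 in dpc16, 15632 in dpp6 and 14474 in dpp40, against 4709, 4448, 5014 and 5638 over all kept cells of the same libraries. They held 87.6% to 91.3% of the kept cells' Lor UMIs. Lor transcripts were also found outside them, since 58.4% to 88.4% of all kept cells had at least 1 Lor UMI. Langerhans cells, which do not make loricrin, had 547, 247, 264 and 369 Lor CPM in NP, dpc16, dpp6 and dpp40, with 81 of the 200 NP UMIs and 52 of the 159 dpc16 UMIs in 1 cell each. Without the richest cell of each library, an alternative chosen after seeing the data, they had 329, 167, 260 and 370 Lor CPM, and a Lor level of that size is read here as background. The median granular cell gave 7.51%, 6.81%, 9.55% and 7.08% of its UMIs to Lor in NP, dpc16, dpp6 and dpp40.

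**Figure D1:**
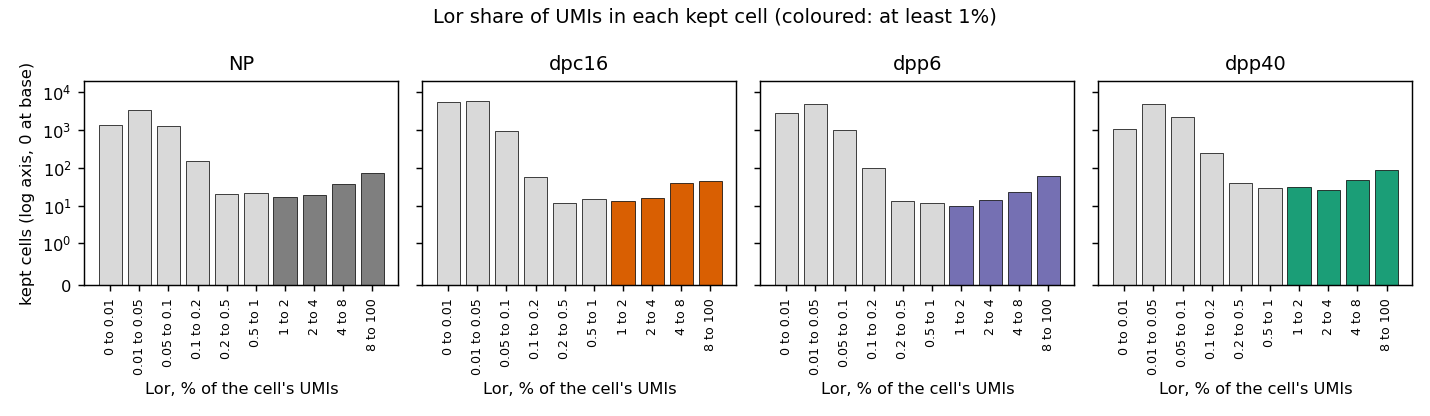
Number of kept cells (log axis) in each range of the Lor share of UMIs, 1 panel for each library. Coloured bars are the granular cells, from 1% upward. Each library has a large group under 0.2% Lor and a smaller group at 8% or more. Cells lie in every range between, so the 1% cut does not fall in an empty range. In dpp40 the ranges 0.2% to 0.5%, 0.5% to 1% and 1% to 2% hold 39, 30 and 32 cells, against 88 at 8% or more.

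Granular cells were 146 of 6491 kept cells in NP (2.25%, 95% exact binomial interval 1.90% to 2.64%), 113 of 12853 in dpc16 (0.879%, 0.725% to 1.06%), 109 of 9031 in dpp6 (1.21%, 0.992% to 1.45%) and 194 of 8552 in dpp40 (2.27%, 1.96% to 2.61%). Intervals here and below are exact, at 95%, and cover counting error only. The dpc16 share was below those of NP and dpp40 beyond counting error, and the dpp6 share was below both as well. NP and dpp40 overlapped, and so did dpc16 and dpp6. Among suprabasal cells alone, that is, granular cells plus cells with at least 1% Krt10 and under 1% Lor (called Krt10-high cells below), granular cells made up 14.8%, 5.83%, 10.5% and 14.3% in NP, dpc16, dpp6 and dpp40. Over this smaller denominator dpc16 was again the lowest library and dpp6 the next. The intervals were 12.63% to 17.2%, 4.83% to 6.97%, 8.74% to 12.58% and 12.46% to 16.25%. Here dpp6 overlapped dpp40 and lay narrowly below NP. Whether dissociation or cell capture moved these shares was not tested.

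Relative to Krt10-high cells, granular cells were rich in transcripts of envelope genes. Of 3467 genes with a mean of at least 20 CPM over the 4 libraries, 177 (5.11%) were at least 8-fold higher in granular than in Krt10-high cells of each library, a description since the rule used these cells. The epidermal differentiation complex (mm10 chr3:90511034-93564643, from S100a1 to S100a10) holds 35 of the 3467 genes (1.01%) and 25 of the 177 (14.1%). It supplied 19.3%, 21.0%, 25.9% and 22.5% of the UMIs of granular cells in NP, dpc16, dpp6 and dpp40, against 0.604% to 0.775% of those of Krt10-high cells and 0.823% to 0.844% of those of basal cells. Basal cells here had at least 0.5% Krt14 and under 0.2% each of Krt10 and Lor. Lor lies in the complex and is counted in these shares. Because the Lor share defines these classes, part of the gap was set by the rule, and the shares are a description.

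Structural genes led the list. Lor stood at 76134, 63786, 85413 and 73249 CPM in NP, dpc16, dpp6 and dpp40. Lce1m, a late cornified envelope gene, stood at 39742, 42802, 54742 and 51899 CPM, and Crct1, a small gene of the same complex, at 35174, 39984, 47815 and 38756 CPM. Krtdap and Sbsn (suprabasin), secreted proteins of differentiating keratinocytes, stood at 53963 and 17890 CPM in NP granular cells, against 21941 and 6160 CPM in NP Krt10-high cells. Flg, which encodes profilaggrin, reached 1757, 1074, 1680 and 1568 CPM in NP, dpc16, dpp6 and dpp40.

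Genes of the enzymes that finish and later open the envelope were present too. Tgm1, the transglutaminase that cross-links envelope proteins, had 259, 174, 245 and 216 CPM in NP, dpc16, dpp6 and dpp40 granular cells, against 9.36 and 8.82 CPM in NP and dpc16 Krt10-high cells. Asprv1, the protease that processes profilaggrin, had 10128, 8481, 11276 and 8258 CPM. Klk7, a kallikrein that cuts the junctions between squames, had 3871, 3239, 4185 and 3004 CPM, and Spink5, which encodes the kallikrein inhibitor LEKTI, had 2013, 1370, 1793 and 1527 CPM. Among the lipid enzymes, Elovl1, a fatty acid elongase, had 1522 to 1950 CPM over the 4 libraries and Alox12b, a lipoxygenase needed to attach ceramides to the envelope, 219 to 341 CPM. Smpd3, a sphingomyelinase, was nearly confined to granular cells, with 210 to 333 CPM over the 4 libraries, against 0.564 and 0.447 CPM in NP and dpc16 Krt10-high cells.

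Each reproductive state was then set against NP within granular cells. A gene is called different at a ratio of at least 2-fold on the log2(CPM + 1) scale, which understates the change of low genes. At dpc16, 84 of 3467 genes (2.42%) were past 2-fold, 41 of them higher (1.18%) and 43 lower (1.24%). At dpp6 the count was 103 (2.97%), with 31 higher (0.894%) and 72 lower (2.08%). At dpp40 it was 40 (1.15%), with 16 higher (0.461%) and 24 lower (0.692%). The median log2 ratio of all tested genes was -0.05, -0.13 and -0.07 for dpc16, dpp6 and dpp40 over NP. Scaled by median-of-ratios size factors instead, the split became 46 higher and 44 lower at dpp6 and 24 higher and 20 lower at dpp40, and on the mean of per-cell CPM it became 53 higher and 86 lower at dpc16. The 3 comparisons share the NP library, so a high or low NP value enters all of them.

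Each library was also set against all 3 others. Dpc16 was at least 2-fold above each other library for 10 genes (0.288% of those tested), among them Hrnr, Il1f6, Serpinb12, Krt1, Oat, Akr1c18 and Wnt4 (a signalling ligand), and below each for 11 (0.317%), among them Cryab, Psors1c2, Arg1 and Npc1. Dpp6 was above each other library for 3 genes (0.0865%), Wfdc18, Psors1c2 and 2310046K23Rik. It was below each for 13 (0.375%), among them Mt1, Mt2, Mt4 and Slpi. For Slpi, 1 cell each held 76.4% of the dpc16 and 54.55% of the dpp40 UMIs, and this call was not tested without them. Dpp40 was above for 1 gene (0.0288%), Edn2, and below for 10 (0.288%), among them Pyy, Serpinb12, Il1f6 and Ckb (a creatine kinase). NP was above for 2 genes (0.0577%), Hbb-bs and Skint11, and below for 3 (0.0865%), Lce1d, Lce1g and Akr1c18.

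Cornified envelope precursors had the most genes past 2-fold of any list at dpc16. Of 29 such genes that passed the 20 CPM filter, 9 were past 2-fold higher at dpc16 over NP, against 1.18% of all genes tested, and 0 lower, with 7 higher and 1 lower at dpp6, and 4 higher and 0 lower at dpp40. The Lce1 genes, whose products are laid under the envelope late in cornification, account for most of it: 7 of 14 were higher at dpc16, 7 at dpp6 and 4 at dpp40, with 1 lower at dpp6. Their median log2 ratios were 0.99, 1.02 and 0.90 for dpc16, dpp6 and dpp40 over NP. Summed over the 14 genes, the level was 63904, 89561, 104175 and 95879 CPM in NP, dpc16, dpp6 and dpp40. NP was thus the lowest of the 4 libraries. With ranges of the Lor share weighted equally, Lce1a1, Lce1a2, Lce1b, Lce1c, Lce1d and Lce1g fell within 2-fold of NP at dpp6. In cells with 8% or more Lor, Lce1d, Lce1f, Lce1h and Lce1l did so at dpc16, while Lce1g and Lce1j did not. The 4 dpp40 calls stayed past 2-fold in both settings. Such cells were 49.3%, 39.8%, 56.9% and 45.4% of granular cells in NP, dpc16, dpp6 and dpp40, and the part of this mix was not tested. Lce1 genes are near-identical neighbours, so reads can be assigned to the wrong copy and the values of single copies are uncertain.

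Single copies differed in which library was low. Lce1d had 666, 1534, 1687 and 1595 CPM in NP, dpc16, dpp6 and dpp40, and NP was at least 2-fold below each of the other 3 libraries. Lce1j had 255, 753, 125 and 707 CPM, high at dpc16 and dpp40 and low at NP and dpp6. In these libraries 1 cell each held 49.2%, 31.0%, 28.3% and 29.2% of its UMIs. Without the richest cell of each library the dpp6 call was lost, while those at dpc16 and dpp40 stayed past 2-fold. Without the granular cells that held an immune UMI, the Lce1j log2 ratio for dpp6 over NP was 0.93, against -1.03 over all of them. Lce1g had 27.7, 188, 73.7 and 150 CPM, but 1 cell held 60.0% of its UMIs in NP and another 70.4% in dpp6. Lce1h had 351, 1002, 547 and 798 CPM. Hrnr (hornerin, a filaggrin-like S100 fused protein) had 317, 757, 312 and 167 CPM and was at least 2-fold higher at dpc16 than in each other library (log2 1.25 over NP). Lce3c, of an LCE group known from injured skin, had 76.5, 207, 121 and 132 CPM (log2 1.43 for dpc16 over NP).

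**Figure D2:**
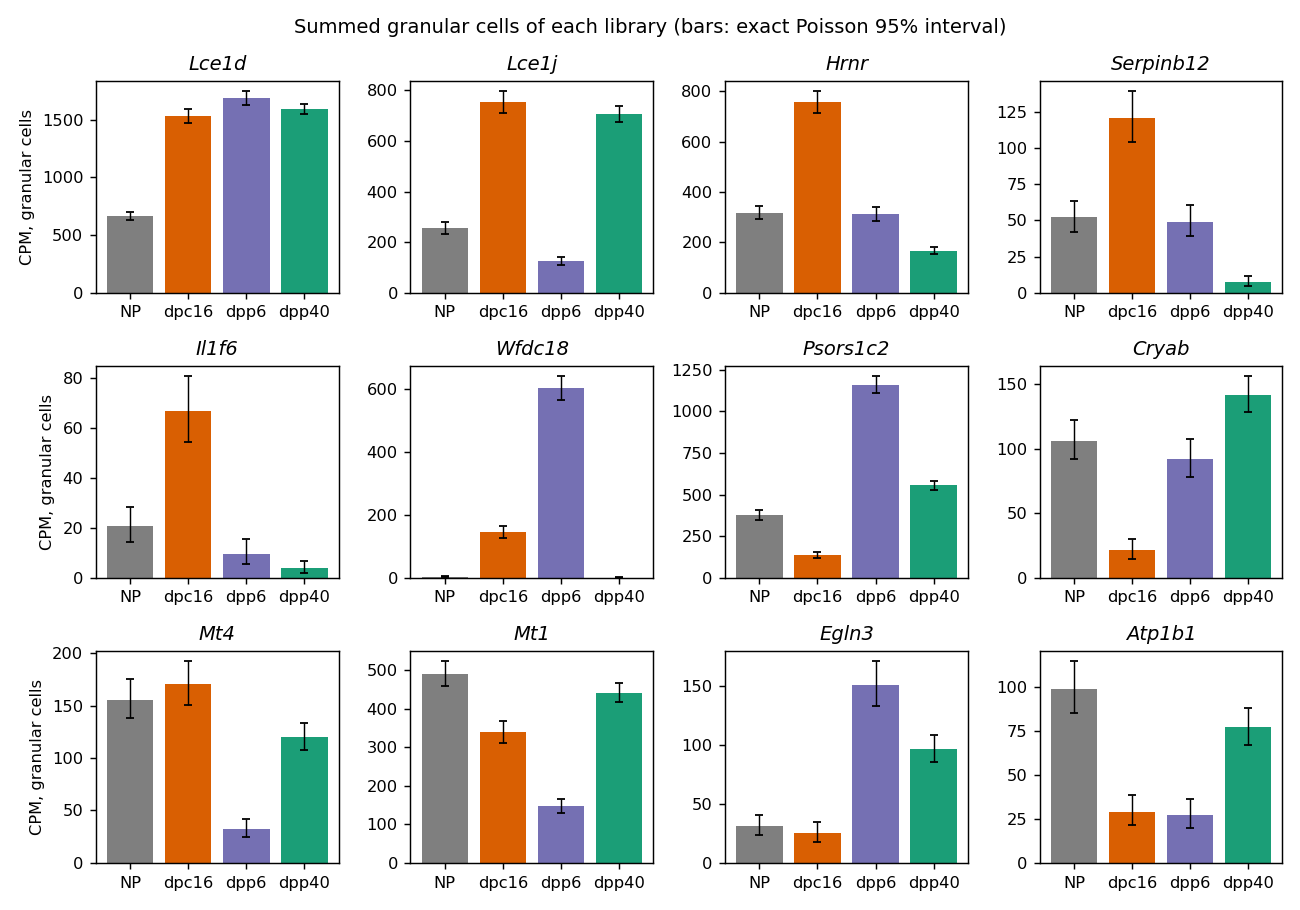
CPM of 12 genes in the summed granular cells of each library, with exact Poisson 95% intervals as error bars. Hrnr, Serpinb12 and Il1f6 are highest at dpc16, Wfdc18 and Psors1c2 at dpp6, and Cryab is lowest at dpc16. The intervals treat each UMI as independent, though 1 cell held 49.2% of the NP Lce1j UMIs.

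At dpc16 the gene furthest above NP was Wfdc18, which encodes a secreted WAP-domain protein known from the mammary gland. It had 5 UMIs in NP, 229 in dpc16, 1020 in dpp6 and 0 in dpp40, or 2.77, 145, 601 and 0 CPM. Cells with a Wfdc18 UMI were 2 of 146 in NP, 33 of 113 in dpc16, 42 of 109 in dpp6 and 0 of 194 in dpp40, and the richest single cell held 17.9% of the dpc16 and 20.2% of the dpp6 UMIs. The log2 ratio over NP was 5.28 at dpc16 and 7.32 at dpp6. With every granular cell thinned to 2000 UMIs, 11.5% of dpc16 and 24.8% of dpp6 cells still had a Wfdc18 UMI. Langerhans cells had a Wfdc18 UMI in 0 of 125 cells at dpc16 (median depth 4776 UMIs) and in 4 of 181 at dpp6 (2.21%, median depth 3853 UMIs). Krt10-high cells held it at 48.4 CPM in dpc16 and 90.9 CPM in dpp6, lower than granular cells of the same libraries. In granular cells the list of 11 milk and mammary luminal genes, chosen after Wfdc18 had been seen, summed to 146 CPM at dpc16 and 601 CPM at dpp6, so nearly all of it was this 1 gene.

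Il1f6 and Il1a were past 2-fold higher than NP at dpc16, and Il18 was not. Il1f6 (IL-36 alpha) had 20.5, 66.6, 9.43 and 3.81 CPM in NP, dpc16, dpp6 and dpp40, highest at dpc16 and lowest at dpp40, with log2 ratios over NP of 1.65 at dpc16 and -2.16 at dpp40. In dpc16, 1 cell held 37.1% of these UMIs. Il1a (interleukin-1 alpha) had 27.7, 80.5, 53.0 and 60.6 CPM (log2 1.51 for dpc16 over NP). Il18 (interleukin-18) had 1301, 1968, 1375 and 923 CPM and stayed within 2-fold of NP. Serpinb12, an intracellular serpin, had 52.1, 121, 48.9 and 7.62 CPM, again highest at dpc16 and lowest at dpp40.

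Further genes past 2-fold higher at dpc16 were Akr1c18, Oat, Krt1, Bglap3 and Thbs1. Akr1c18, the enzyme that inactivates progesterone, had 7.20, 40.6, 19.4 and 18.4 CPM in NP, dpc16, dpp6 and dpp40 (log2 2.34 for dpc16 over NP). Oat, ornithine aminotransferase, had 16.1, 52.0, 15.9 and 14.5 CPM, high in dpc16 alone. Krt1, the partner of Krt10, had 165, 485, 100.8 and 160 CPM in granular cells and 2996 and 4824 CPM in NP and dpc16 Krt10-high cells. Bglap3, of the osteocalcin family, had 8.31, 67.8, 34.2 and 4.15 CPM, and Thbs1, thrombospondin 1, had 13.3, 39.9, 23.0 and 25.3 CPM.

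Genes past 2-fold lower at dpc16 included Cryab, the small heat shock protein alpha B-crystallin, with 106, 21.6, 91.9 and 142 CPM in NP, dpc16, dpp6 and dpp40 (log2 -2.25 over NP). Dpc16 was below each other library by more than 2-fold. Psors1c2, a granular layer gene of the psoriasis susceptibility locus, had 376, 134, 1159 and 555 CPM, lowest at dpc16 and highest at dpp6. Npc1, which exports cholesterol from lysosomes, had 31.0, 8.87, 21.2 and 27.4 CPM, and Arg1, arginase 1, had 42.1, 9.51, 20.03 and 38.4 CPM. Atp1b1, a subunit of the sodium pump, was low at dpc16 and dpp6 and had 99.2, 29.2, 27.1 and 77.2 CPM. Txnip, an inhibitor of thioredoxin and glucose uptake, had 106, 33.6, 23.0 and 74.1 CPM. Ndrg1, a gene raised by hypoxia in many cells, had 69.2, 24.1, 30.6 and 70.3 CPM.

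At dpp6 metallothioneins were low. Mt4, the metallothionein of stratified epithelia, had 156, 171, 32.4 and 120 CPM in NP, dpc16, dpp6 and dpp40 (log2 -2.23 for dpp6 over NP). Mt1 had 490, 339, 147 and 442 CPM and Mt2 342, 335, 120 and 339 CPM, both past 2-fold lower than NP at dpp6 and at dpp6 below each other library. Of 11 glucocorticoid and hormone responsive genes that passed the filter, 4 were past 2-fold lower at dpp6 (Mt1, Mt2, Igfbp3 and Pyy), against 2.08% of all genes tested, and 0 were higher. The Pyy call rests on 1 NP cell with 73.2% of the NP UMIs: without the richest cell of each library its log2 ratio was -0.47, against -2.06 over all granular cells, and with Pyy left out the count is 3. Of 80 cytosolic ribosomal protein genes, 8 were past 2-fold lower at dpp6 and 0 at dpc16 or dpp40, and their summed level was 144466, 160291, 112991 and 157781 CPM. Their sum was lower in cells with more Lor, at 254755 CPM with 1% to 2% Lor and 86583 CPM with 8% or more in NP. At dpp6 it was 205898 and 70015 CPM. Cells with 8% or more were 49.3% of granular cells in NP and 56.9% in dpp6, and the part of this mix was not tested. Rpl38, 1 of the 8, stayed past 2-fold under 8 of 18 alternatives. Of 9 basal markers 3 were lower at dpp6: Mt2, and the hemidesmosome genes Col17a1 (139, 204, 58.9 and 108 CPM) and Dst (85.9, 102, 28.9 and 50.5 CPM). The summed basal markers were 3682, 5223, 2149 and 3311 CPM in granular cells, and their part in these differences was not tested.

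Egln3, an oxygen-sensing prolyl hydroxylase, was the gene with the second highest dpp6 ratio among those named. It had 31.6, 25.4, 151 and 96.2 CPM in NP, dpc16, dpp6 and dpp40, with log2 ratios over NP of 2.22 at dpp6 and 1.58 at dpp40. Asb2, part of a ubiquitin ligase, had 10.5, 20.9, 31.8 and 21.5 CPM. Slpi, a secreted protease inhibitor, had 33.8, 56.4, 7.07 and 22.9 CPM, with 76.4% of the dpc16 and 54.55% of the dpp40 UMIs in 1 cell each. Cldn3, a tight junction claudin, had 19.4, 22.8, 48.3 and 32.9 CPM (log2 1.27 for dpp6 over NP). It was 1 of 11 tight and gap junction genes past 2-fold higher at dpp6, against 0.894% of all genes tested, and the call was lost with Lor at least 0.5% or at least 2% and turned to -0.90 in the cells richest in Lce1 transcripts, described further on.

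At dpp40 the fewest genes differed from NP. Dpp40 also had the most granular cells, 194 against 113 at dpc16 and 109 at dpp6. Its summed UMIs were 2888991, against 1577566 at dpc16 and 1697264 at dpp6, so counting error was smallest there. The counts were not compared at equal cell numbers. Pyy, peptide YY, had 112 UMIs in NP and 0 in dpp40, which at a floor of 3 UMIs over the dpp40 granular cells is at least 59.7-fold lower, but 73.2% of the NP UMIs came from 1 cell. Hbb-bs, a beta globin, had 52.6, 25.4, 12.96 and 0 CPM in NP, dpc16, dpp6 and dpp40, at least 50.7-fold lower at dpp40 than in NP. Hba-a1, an alpha globin, had 50.4, 40.6, 47.7 and 62.3 CPM in the same cells, so the globin genes did not go together. Cd74, H2-Aa, H2-Ab1 and H2-Eb1, genes of antigen-presenting cells, were past 2-fold lower at dpp40, which is 4 of 6 Langerhans and myeloid markers against 0.692% of all genes. They summed with the other markers of that list to 1615, 1628, 1509 and 1353 CPM in NP, dpc16, dpp6 and dpp40, and 1 cell gave 60.9% of the NP and 83.3% of the dpc16 Cd74 UMIs. Without the granular cells that held an immune UMI, Cd74 and H2-Aa were within 2-fold of NP at dpp40, and without the richest cell of each library H2-Ab1 turned to a log2 ratio of 0.12, against -1.03 over all granular cells. Edn2, endothelin 2, had 12.2, 14.6, 12.96 and 40.8 CPM and was the only gene at dpp40 at least 2-fold above each other library.

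Of all genes tested, 97.6%, 97.0% and 98.9% were within 2-fold of NP at dpc16, dpp6 and dpp40, so lists with few or no genes past 2-fold are near that background and show nothing particular to their genes. Of 31 barrier lipid enzymes and transporters that passed the filter, 0 were past 2-fold at dpc16, dpp6 or dpp40, and their summed level was 6521, 5699, 6489 and 5578 CPM in NP, dpc16, dpp6 and dpp40. Of 20 proteases and filaggrin-processing genes 0 were past 2-fold, with sums of 21490, 17897, 23728 and 17298 CPM. The desmosome and corneodesmosome list (8 genes), the S100 genes (6), the interferon and class I genes (8), the cholesterol synthesis genes (12) and the transglutaminases (2) also had 0 past 2-fold in any state. Among 22 differentiation transcription factors, Id1 alone was past 2-fold, at dpc16. Klf4, a driver of barrier formation, had 940, 1095, 998 and 820 CPM, and Prdm1 (Blimp1), which acts in terminal differentiation, had 134, 114, 107 and 107 CPM, against 2.26 and 1.34 CPM in NP and dpc16 Krt10-high cells.

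Granular cells differed among themselves along their Lor share. In cells with 8% or more Lor, 292 of 3467 genes (8.42%) were at least 2-fold higher and 958 (27.6%) at least 2-fold lower than in cells with 1% to 2% Lor in each of the 4 libraries, a description since Lor chose the cells. The number of cells at 8% or more was 72 in NP, 45 in dpc16, 62 in dpp6 and 88 in dpp40, and at 1% to 2% it was 17, 13, 10 and 32. Lce1j had log2 ratios between these grades of 7.61 to 9.96 over the 4 libraries, and Gpsm1, a modulator of G proteins, of 5.86 to 6.53. On the other side Gjb5, a connexin gene, had ratios of -4.74 to -3.38, Evpl (envoplakin, an early envelope protein) of -3.97 to -3.16, and Ptgs1, a cyclooxygenase, of -4.59 to -3.52. The median mitochondrial share was 0.98%, 1.29%, 0.938% and 0.757% at 8% Lor or more in NP, dpc16, dpp6 and dpp40, against 3.01%, 2.60%, 2.48% and 2.83% at 1% to 2%.

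Lce1 content gave a second division. The 14 Lce1 genes together took at least 5% of UMIs in 44 of 146 NP cells (30.1%), 44 of 113 dpc16 cells (38.9%), 44 of 109 dpp6 cells (40.4%) and 78 of 194 dpp40 cells (40.2%), called Lce1-rich here. They took under 1% in 65 NP cells (44.5%), 48 dpc16 cells (42.5%), 49 dpp6 cells (45.0%) and 83 dpp40 cells (42.8%), called Lce1-poor. The exact intervals of these shares overlap between the states in both groups. Outside the granular cells, Lce1 genes reached 1% of UMIs in 1 NP cell and in 0 cells of the other libraries. The division was made after the values had been seen and is a description.

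**Figure D3:**
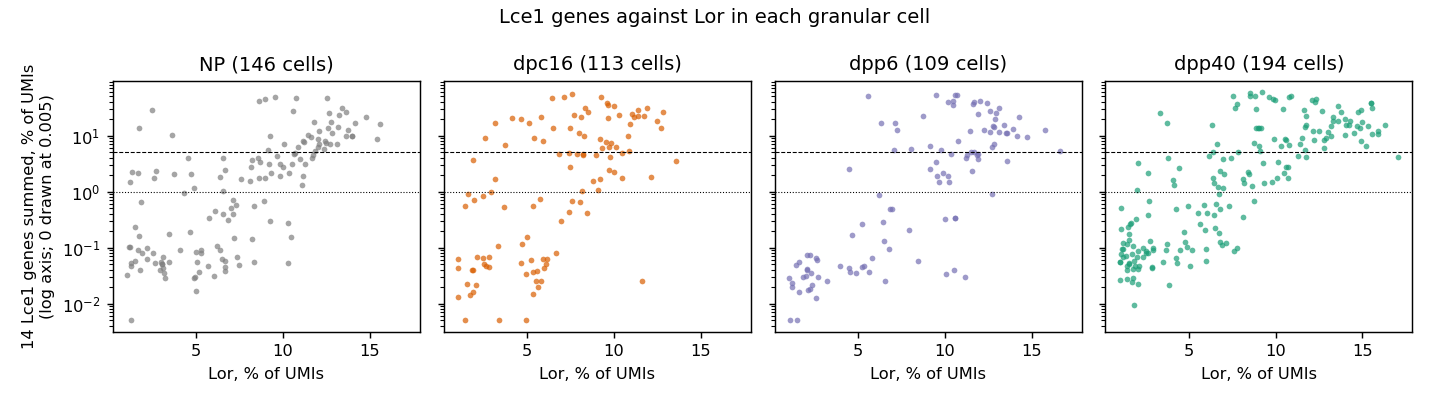
Share of UMIs taken by the 14 Lce1 genes (log axis) against the Lor share in each granular cell, 1 panel for each library. Lines mark 1% and 5%. Most cells with little Lor lie below the lower line and most with over 10% Lor lie above the upper one, and a few cells with low Lor are Lce1-rich.

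Lce1-rich cells carried fewer kinds of transcript at no lower depth. Their median gene count was 1688, 1702, 1772 and 1688 in NP, dpc16, dpp6 and dpp40, against 2303, 2508, 2712 and 2748 in Lce1-poor cells, while their median UMI count was 12108, 13082, 17350 and 15372, against 10789, 11930, 14229 and 13836. Mitochondrial UMIs had a median of 0.855%, 1.17%, 0.744% and 0.722% in Lce1-rich cells and of 1.83%, 2.36%, 1.80% and 2.08% in Lce1-poor cells. Ribosomal protein genes summed to 72641, 111708, 52716 and 70986 CPM in Lce1-rich cells and 180628, 210071, 182334 and 221555 CPM in Lce1-poor cells. Lce1-rich cells of each library were thus the lower ones in gene number, mitochondrial share and ribosomal protein transcripts. Their median Lor share was 12.2%, 9.28%, 11.97% and 11.9%, against 4.98%, 4.67%, 4.48% and 2.66% in Lce1-poor cells.

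Of the 3467 genes, 258 (7.44%) were at least 2-fold higher and 1236 (35.6%) at least 2-fold lower in Lce1-rich than in Lce1-poor cells in each of the 4 libraries. Beside the Lce1 genes the highest ratios included Krtap3-2, a keratin-associated protein gene best known from hair, with log2 9.38, 8.02, 7.66 and 10.29 in NP, dpc16, dpp6 and dpp40. Lce3c had log2 ratios of 6.15 to 7.75 over the 4 libraries and Il1a of 6.30 to 6.91. Hmox1, heme oxygenase 1, had log2 ratios of 5.06 to 5.42, and Lnx1, a ubiquitin ligase, of 6.29 to 8.11. Crct1 was higher as well, at 2.92 to 3.41. Asprv1 (1.58 to 2.68) and Klk9 (2.73 to 4.91) were among the 6 of 20 protease genes past 2-fold higher in each library.

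Lower counts are read against the 35.6% of all genes tested that were lower in Lce1-rich cells. Of 11 tight and gap junction genes, 8 were past 2-fold lower in Lce1-rich cells of each library. Cldn4 had log2 ratios of -6.63 to -3.95 and Cldn23 of -5.78 to -3.93. Of 12 cholesterol synthesis genes 9 were lower and 0 higher, and of 15 protease inhibitors 10 were lower and 1 higher (Csta1). Of 31 barrier lipid genes 11 were lower and 1 higher (Smpd3), a share at the background. Psapl1, a saposin-like lipid protein, had log2 ratios of -5.20 to -3.19. Xbp1, a factor of the secretory pathway, had -4.50 to -3.49, Arsa, a lysosomal sulfatase, -4.98 to -4.14, and F3, tissue factor, -4.84 to -4.11. Ivl, which encodes involucrin, an early envelope protein, had -5.82 to -2.31, whereas Flg2 stayed within 2-fold in each library, at -0.46 to 0.20.

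**Figure D4:**
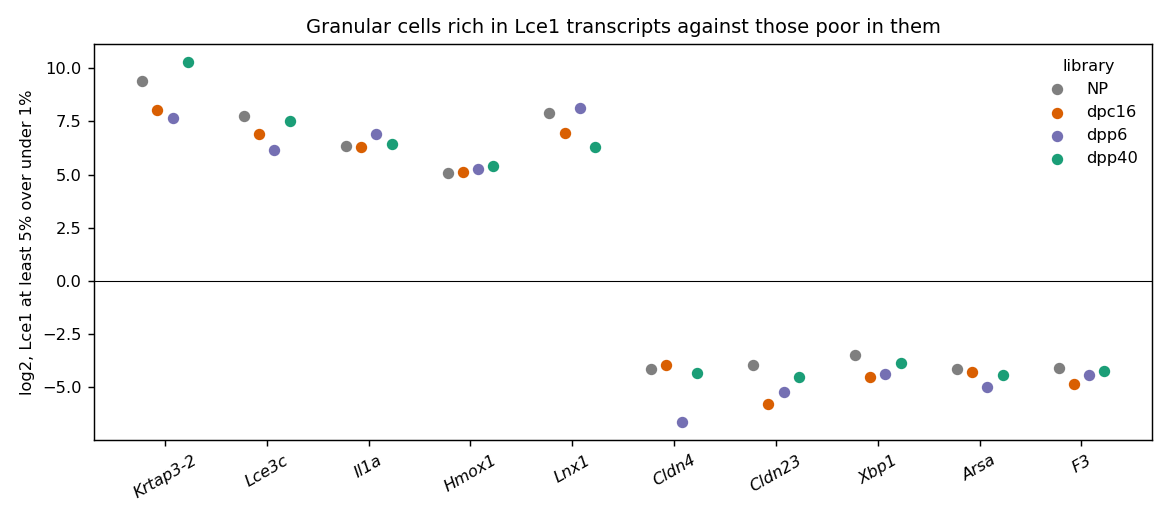
Log2 ratio of summed CPM (with 1 CPM added) in Lce1-rich over Lce1-poor granular cells for 10 genes, 1 point for each library. Krtap3-2, Lce3c, Il1a, Hmox1 and Lnx1 lie above 5 and Cldn4, Cldn23, Xbp1, Arsa and F3 below -3.4 in each library.

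The state differences and this division overlap for some genes and not for others. Wfdc18 was lower in Lce1-rich than in Lce1-poor cells at dpc16 (log2 -4.01) and dpp6 (-4.03), and Hrnr in each library (-2.13 to -1.59). Within Lce1-poor cells Myl4 (a myosin light chain) had a log2 ratio of 0.07 for dpc16 over NP (-1.75 over all granular cells). Psors1c2 had one of -0.03 there for dpp6 over NP (1.62 over all granular cells). These 2 differences were thus not seen in Lce1-poor cells. Other differences of the same genes, Myl4 higher at dpp6 and Psors1c2 lower at dpc16, stayed past 2-fold in Lce1-poor cells. Within Lce1-rich cells the median Lce1 share was 10.6% in NP, 20.2% in dpc16, 14.8% in dpp6 and 15.3% in dpp40.

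EGFP reports cells in which the Tbx3-tied Cre has acted, together with the descendants that keep the protein or the recombined gene, and Tbx3 itself is a T-box transcription factor. Granular cells held 47, 33, 39 and 40 EGFP UMIs in NP, dpc16, dpp6 and dpp40, or 26.0 (interval 19.1 to 34.6), 20.9 (14.4 to 29.4), 23.0 (16.3 to 31.4) and 13.8 (9.89 to 18.9) CPM. The intervals of NP and dpp40 do not overlap, by a narrow margin, and those of all other pairs do. With Lor at least 0.5% they overlapped, at 17.99 to 31.95 CPM in NP and 11.2 to 19.7 CPM in dpp40. Thinned to 2000 UMIs they overlapped too, at 7.54 to 44.7 and 1.595 to 22.6 CPM. The intervals treat each UMI as independent, though 33 NP cells held the 47 NP UMIs and 31 dpp40 cells the 40 dpp40 UMIs. Krt10-high cells held 3.50, 3.24, 4.60 and 3.60 EGFP CPM and basal cells 1.19, 1.13, 1.74 and 1.06, so granular cells were the highest of these classes in each library. Langerhans cells held 0, 1.55, 5.12 and 0 EGFP CPM, with upper limits of 8.64 to 11.9. Granular cells made up 35.9%, 20.5%, 24.5% and 26.0% of all kept EGFP UMIs, against 4.54%, 2.12%, 3.06% and 4.62% of all kept UMIs.

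An EGFP UMI was seen in 33 of 146 NP cells (22.6%), 28 of 113 dpc16 cells (24.8%), 27 of 109 dpp6 cells (24.8%) and 31 of 194 dpp40 cells (16.0%). Langerhans cells had one in 0%, 0.800%, 2.21% and 0% of cells, at median depths of 4190, 4776, 3853 and 5217 UMIs. Thinned to 2000 UMIs, the granular shares were 4.11%, 3.54%, 4.59% and 1.55%, against 0%, 0%, 0.552% and 0% of Langerhans cells, and the most EGFP UMIs in 1 granular cell was 6. By Lce1 content, Lce1-rich cells held 5.03, 9.42, 8.02 and 9.71 EGFP CPM in NP, dpc16, dpp6 and dpp40, against 36.3, 31.9, 37.7 and 17.8 CPM in Lce1-poor cells. The intervals of Lce1-rich and Lce1-poor cells do not overlap in NP and dpp6 and overlap in dpc16 and dpp40. The EGFP level was thus the lower one in Lce1-rich cells of each library, though within 2-fold at dpp40. It is read against the 35.6% of all genes tested that were at least 2-fold lower in Lce1-rich cells of each library.

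Tbx3 transcripts were scarce in the same cells. Granular cells held 1, 9, 3 and 2 Tbx3 UMIs in NP, dpc16, dpp6 and dpp40, or 0.554 (0.0140 to 3.09), 5.71 (2.61 to 10.8), 1.77 (0.365 to 5.17) and 0.692 (0.0838 to 2.50) CPM. Krt10-high cells held 3.83, 19.3, 5.86 and 2.80 CPM and basal cells 3.57, 9.21, 3.55 and 2.36 CPM, with dpc16 the highest library in all 3 classes. At dpc16 the granular level lay below that of Krt10-high cells (interval 17.3 to 21.4) and overlapped that of basal cells (8.09 to 10.4). In Langerhans cells Tbx3 stood at 2.73, 4.65, 1.02 and 2.38 CPM, and the intervals of both classes overlap in each library, so granular Tbx3 could not be told from background at this depth. Both EGFP and Tbx3 were seen in 0, 3, 1 and 0 granular cells of NP, dpc16, dpp6 and dpp40.

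**Figure D5:**
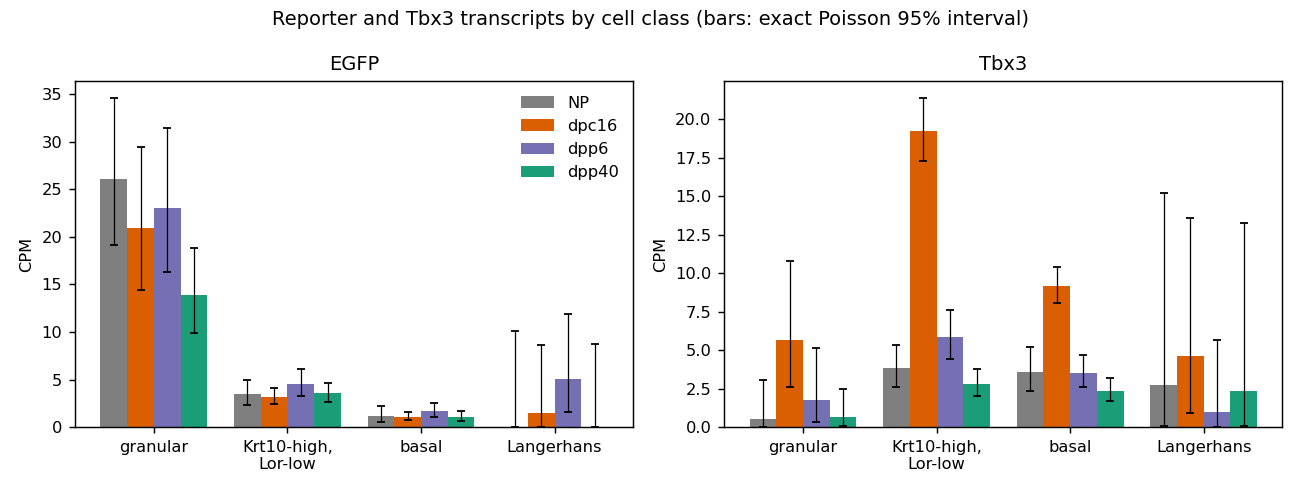
EGFP and Tbx3 transcripts (CPM) in granular, Krt10-high, basal and Langerhans cells of each library, with exact Poisson 95% intervals. EGFP is highest in granular cells in each library, while Tbx3 is highest in Krt10-high cells at dpc16.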

How the data were processed

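Single-cell libraries (10x Chromium 3' v2) of 4 states were analysed from the deposited UMI count matrices, made by the authors with Cell Ranger 2.2.0 on mm10, per the submitters' processing notes. The 9 bulk libraries (FPKM) were not used here. Kept cells had 200 or more genes and no more than 10% of UMIs from mitochondrial genes, and granular cells had at least 1% Lor. No doublets were removed. UMIs were summed per library and class, genes with a mean of at least 20 CPM were compared as log2(CPM + 1), and 2-fold was the call. The call was tried on sums simulated from mean levels and library totals. That simulation holds no clustering of UMIs in cells and no variation between mice, so it gives no error rate for these data. With 1 library per state no p-value exists. Cells were thinned to 2000 UMIs (seed 1) for shares. Python 3.11.15, numpy 2.4.6, scipy 1.17.1, pandas 2.3.3 and matplotlib 3.10.9 were used. Promoters came from the RefSeq table (GRCm38.p6).

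The cells and gene lists were chosen with earlier results of these data known. Genes were named by a rule: the 12 highest and 12 lowest ratios for dpc16, the 6 for dpp6 and dpp40, the 15 most granular-enriched, the top 4 by level and 3 by dpc16 ratio of each list, and 8 each way along Lor. Igfbp3, Col17a1, Dst, H2-Eb1, Prdm1 and the genes named only for the Lce1 division (Arsa, Cldn4, F3, Ivl, Klk9, Lnx1 and Xbp1) fall outside it and were chosen after their values were seen. Symbols shared by several IDs were kept apart by ID. The result of 1 gene in the Lce1 division is not reported here.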

Additional observations from a re-analysis of the deposited data

Results flagged for a closer look

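Between dpp6 and NP, 2 genes lay past 2-fold in opposite directions in granular cells and in Krt10-high cells. Pyy had a log2 ratio of -2.06 in granular cells and 2.88 in Krt10-high cells. In granular cells 1 NP cell held 82 of the 112 NP UMIs, and without the richest cell of each library the ratio was -0.47. Cells with a Pyy UMI were 19 of 109 granular cells at dpp6 (17.4%) and 6 of 146 in NP (4.11%), against 5.53% and 1.41% of Langerhans cells, and thinned to 2000 UMIs the granular shares were 2.75% at dpp6 and 1.37% in NP. The median depth at dpp6 and NP was 15632 and 11158 UMIs in granular cells and 3853 and 4190 UMIs in Langerhans cells. Ndrg1 had a log2 ratio of -1.15 in granular cells and 1.01 in Krt10-high cells. With 1 library per state the difference between the classes was not tested.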

How the results depend on the processing

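Of 88 named differences past 2-fold, 33 kept their direction and stayed past 2-fold under all 18 alternatives, and the cause of the shifts below was not tested. No paired analysis was possible because each state is 1 single-cell library, and no test was made. Genes higher and lower than NP numbered 717 and 898 at dpc16, 511 and 1376 at dpp6 and 529 and 569 at dpp40 with no filter on low values. With a mean of at least 100 CPM they numbered 12 and 10, 16 and 21, and 4 and 6, and with a pseudocount of 10 CPM 25 and 22, 19 and 33, and 6 and 13. Thinned to 2000 UMIs they numbered 224 and 320, 185 and 322, and 161 and 194, and genes with 1 state higher or lower than each other state numbered 22 and 47 for NP, 36 and 106 for dpc16, 22 and 108 for dpp6 and 9 and 40 for dpp40. Size factors gave 44 lower at dpp6, and 0 higher and 5 lower for NP alone, which were 1 and 8 with Lor at least 2%. Totals without Lor, mitochondrial and ribosomal UMIs gave 116 lower at dpp6 and 30 higher at dpp40, per-cell CPM 86 lower at dpc16 and 25 higher at dpp40, and equal Lor bins 73 lower at dpc16. The dpp40 granular share was 2.62% with Lor at least 0.5% and 1.89% with Lor at least 2%. Thinned, EGFP was 7.73 CPM at dpp40 and Tbx3 0 at NP and 2.58 CPM at dpp40. By direction, H2-Ab1 at dpp40 turned to 0.35 (log2) with Lor at least 2% and 0.24 with at most 5% mitochondrial UMIs, and Lce1g at dpp6 to -0.12 on per-cell CPM and -0.36 with equal Lor bins. The remaining alternatives were chosen after seeing the data. Without cells holding an immune UMI, 71 genes were lower at dpc16 and 33 higher at dpp40, and Lce1j at dpp6 turned to 0.93. With Lor at least 8%, Arg1 at dpc16 turned to 0.55, Pyy at dpp6 to 2.12 and H2-Ab1 at dpp40 to 0.57. Without the richest cell H2-Ab1 turned to 0.12 and Tbx3 at NP was 0. In Lce1-rich cells Pyy at dpp6 turned to 3.06, H2-Ab1 at dpp40 to 0.016 and Cldn3 at dpp6 to -0.90, EGFP was 5.03, 9.42, 8.02 and 9.71 CPM in NP, dpc16, dpp6 and dpp40, and Tbx3 was 0 in NP, dpp6 and dpp40. In Lce1-poor cells Lce1j, which the division itself uses, turned to -0.36 at dpc16 and -0.043 at dpp40, Myl4 at dpc16 to 0.072, Psors1c2 at dpp6 to -0.032, 2310046K23Rik at dpp6 to -0.63 and Gm5849 at dpp40 to 0.85, EGFP was 36.3, 31.9 and 37.7 CPM in NP, dpc16 and dpp6, and Tbx3 at dpc16 was 1.52 CPM.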
